A study of Drosophila melanogaster with 999 samples.

Results

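The genes described here encode the bone morphogenetic protein (BMP) signalling machinery through which a motoneuron (MN) of the fly reads a growth signal from its muscle. They were taken by name: wit, put, tkv, sax, babo, Mad, Med, gbb and Dad, of which 8 of 9 were among the 7279 rows of the gene table. The ninth, gbb, was read from the transcript tables of the single cells. The study sequenced single MNs of Drosophila melanogaster embryos aged 19 to 20 h. The embryos carried the driver OK371-GAL4 with UAS-RFP, and RFP-positive cells that took up DRAQ5 but not DAPI were sorted one by one into plates and sequenced by a Smart-seq2 protocol with added primers for the 7 Hox genes. The cells shared this 1 genotype with no treatment, and came from 1 pool of embryos on 16 plates. OK371-GAL4 uses regulatory DNA of VGlut, the vesicular glutamate transporter gene, and is also active in some glutamatergic neurons of the brain.

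In this pathway the muscle releases the ligand Gbb, which binds a receptor complex on the motor nerve terminal. The complex joins a type II receptor (Wit or Punt, the product of put) to a type I receptor (Thickveins or Saxophone, the products of tkv and sax), and the type I receptor phosphorylates the Smad protein Mad. Phosphorylated Mad acts with the co-Smad Medea (Med) in the nucleus, and the pathway is known for driving growth of the neuromuscular junction. Dad, an inhibitory Smad, and twit (target of wit) are genes that this pathway is known to switch on. Baboon (babo) is the type I receptor of the related activin branch, which can use Punt and Wit as type II receptors.

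Each cell had between 100027 and 5834773 reads, the median cell having 340803, and the plates held 17 to 82 cells each. VGlut had reads in 95.8% of cells and the pan-neuronal gene elav in 90.6%, so most cells carried the defining markers of the labelled type. At least 10 reads of a muscle, glia, haemocyte or neuroblast marker were present in 63 cells (6.31%) when Mef2 and nrv2, which had reads in 42.2% and 64.4% of cells, were not counted, and in 70.2% of cells when they were. The cells are not replicates of the pool, so no test between groups of cells was run. Intervals are exact 95% binomial (Clopper-Pearson) limits on the number of cells. They cover counting error only and leave out variation between plates, embryos and pools, so whether an interval includes 0 is no test. Reads of a cell can be PCR copies of 1 molecule and are not independent. For a count of 0 the share that 3 counts would give is printed with the exact limit. Shares that are compared between groups were taken after each cell was thinned at random to 50000 reads.

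Each of the 8 genes was detected, with at least 1 read, in a minority of the MNs, from 7.21% of cells for tkv to 31.2% for Med. The type II receptor gene wit (chromosome 3L, 4064152 to 4071717, minus strand, annotation BDGP6.54) was found in 13.9% of cells (interval 11.8% to 16.2%). Its shares on the plates ran from 6.06% to 30.4%. The highest were 14 of 46 cells on plate 15, 18 of 78 on plate 2 and 18 of 82 on plate 3. The other type II receptor gene, put (3R, 14619030 to 14625703, minus strand), was found in 17.3% (15% to 19.8%), with plates between 10.2% and 23.8%.

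Of the BMP type I receptor genes, tkv (2L, 5219000 to 5271384, minus strand) had reads in 72 cells (5.68% to 8.99%) and sax (2R, 7806484 to 7810067, plus strand) in 17.3% (15% to 19.8%). The activin receptor gene babo (2R, 8952339 to 8962796, plus strand) was found in 25.5% (22.8% to 28.3%), an interval that lies above those of the other 4 receptors. At least 1 of the 5 receptors had a read in 57.8% of cells (54.6% to 60.8%). A BMP type I receptor (tkv or sax) was seen in 23.5% and a type II receptor (wit or put) in 28% of cells.

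Of the Smad genes, Mad and Dad were detected about as often as babo, and Med more often. Mad (2L, 3146056 to 3159643, minus strand), the Smad that the BMP type I receptors phosphorylate, had reads in 23.2% of cells (20.6% to 26%). Med (3R, 31611046 to 31615375, plus strand), its partner, had reads in 31.2% (28.4% to 34.2%). Dad (3R, 17054007 to 17070408, plus strand), which inhibits the pathway inside the cell, had reads in 24.9% (22.3% to 27.7%). Shares on the plates ran from 12.8% to 31.2% for Mad, from 20% to 41.2% for Med and from 16.7% to 31.7% for Dad. Of the exonic bases of Med, 9.66% also belong to CycG on the opposite strand, and of those of wit, 9.49% belong to dib. Reads from these stretches cannot be told apart where strand was not kept. CycG was present in 91.6% of cells and dib in 32 cells.

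These shares moved with depth but kept tkv lowest and Med highest. After thinning to 50000 reads they ran from 5.51% to 23.5%, and at a minimum of 10 reads from 4.40% to 19.5%. Of the cells with a read, between 31% (babo) and 45.3% (wit) held fewer than 10 reads of the gene. The median number of reads in cells with a read was 11 for wit, 14 for put, 16.5 for tkv, 33 for sax, 24 for babo, 14.5 for Mad, 19.5 for Med and 19 for Dad. The counts were skewed, and the single cell with most reads gave between 3.42% (babo) and 13.7% (Mad) of all reads of a gene. By the number of cells with a read, tkv ranked above 36.8% of all genes and Med above 76.2%.

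**Figure D1:**
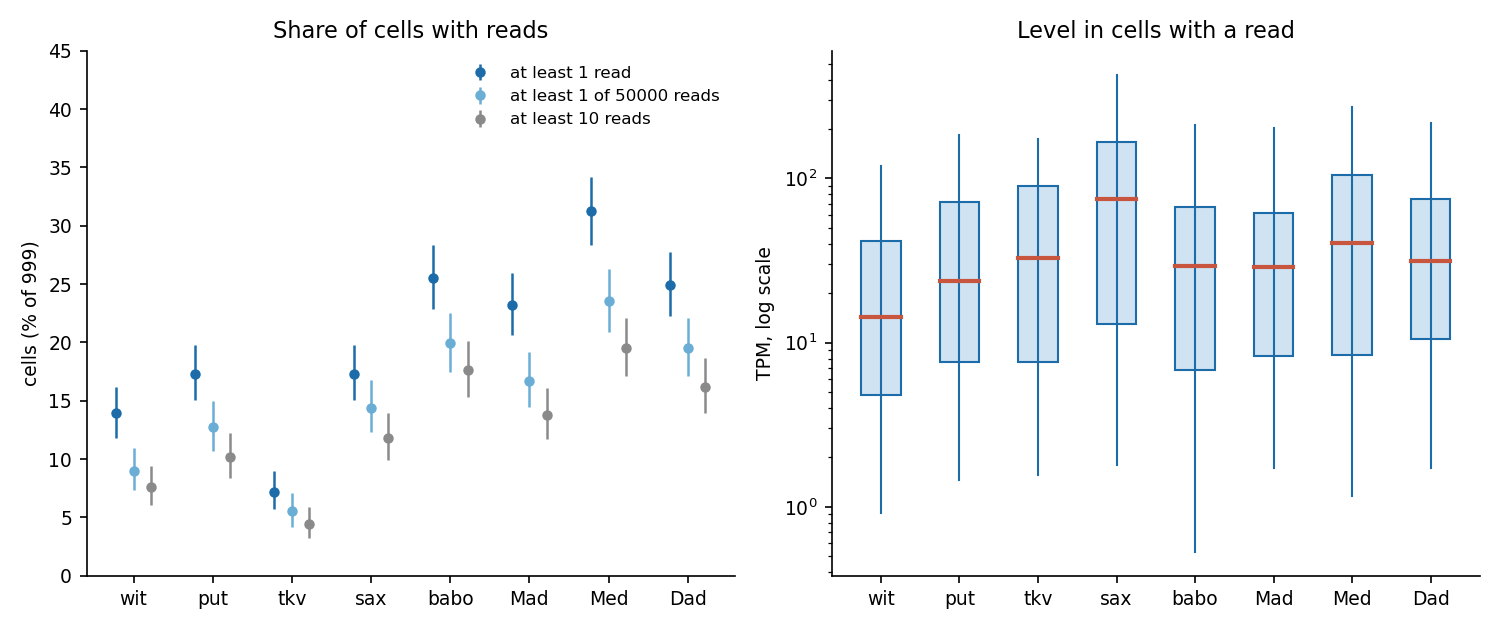
Left, share of cells with reads of each gene (%) at 3 settings, with exact 95% intervals of counting error; Med was highest (31.2% with at least 1 read) and tkv lowest (7.21%). Right, level in cells with a read (TPM, transcripts per 1000000, log scale); lines run from the 5th to the 95th percentile, boxes span the quartiles, and red bars are medians, which range from 14.2 (wit) to 75.3 (sax).

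The ligand gene gbb (2R, 23851562 to 23853247, plus strand) was detected in few of these neurons. Estimated reads were found in 10 cells (1.0%, 0.481% to 1.83%), 920 reads in all, and 7 of these cells held 10 or more. The level in these cells ran from 1.85 to 670.3 CPM (counts per 1000000 reads of the cell). Of the 10 cells, 3 had no VGlut read. All 10 had 0 twit reads, and none of the cells with at least 10 twit reads held gbb, which allows a share of up to 1.53% there by 3 counts (exact limit 1.86%).

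Levels between genes were compared per length, in TPM (transcripts per 1000000) summed over the transcripts of a gene, in cells with a read. The median level was 75.3 TPM for sax, 40.2 for Med, 32.7 for tkv, 31.3 for Dad, 29.4 for babo, 28.9 for Mad, 23.6 for put and 14.2 for wit. The quartiles of each gene overlapped those of its neighbour in this order, so neighbours did not stand apart. The order differed from that by detection, as tkv, present in the fewest cells, had a median level above those of 5 of the others. The median level of elav was 161.6 TPM in cells with a read and that of twit 1332 TPM, both above the medians of the 8 genes. Averaged over all cells, with and without reads, the mean level ran from 4.44 TPM (tkv) to 26.7 TPM (Med).

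The short single-end reads were also divided among annotated transcripts by the authors' mapping. The forms wit-RA and wit-RB received 50% of the estimated reads each, and put-RA and put-RB 40% each, so that these pairs were not resolved. For 5 other genes 1 form took most of the reads: Mad-RA took 80%, tkv-RA 73.4%, Med-RB 65.4%, Dad-RC 62.8% and babo-RC 62.5%. The reads of sax were shared between sax-RC (48.1%) and sax-RA (43.5%). These shares pool all cells, so that a few cells with many reads weigh most, and they carry no error.

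Cells with at least 10 reads of twit were then compared with cells with 0, since twit is a known target of this receptor system. In the paper, cells high in twit formed a cluster of their own. The paper proposes that they are a distinct MN subtype, and located twit RNA in posterior MNs. Whether differences here go with that subtype or with BMP signalling was not tested. The groups compared here held 19.6% and 77.4% of the cells, and 30 cells with 1 to 9 reads were left out. Their median depth was 344030 and 340785 reads, and the median number of genes after thinning was 1224 and 1282. Cells without a Hox read, which the paper left out as they might include brain neurons, lay mostly in the group without twit. After thinning, 4.86% of them held twit, against 6.33% to 31.1% in the Hox classes described below. The groups differed in ribosomal RNA (rRNA): 11 rRNA genes and pseudogenes took a median of 49.2% of the reads with twit and 36.2% without. The comparison was therefore repeated, as a choice made after seeing the data, on 50000 reads drawn without rRNA, mitochondrial and Hox genes, which left out 21 cells. Over all genes the median difference of shares was -0.91 percentage points. The median ratio of mean CPM was 0.71, and 0.81 with totals free of these genes.

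Dad was the gene of the set with the largest difference between the groups. After thinning it was detected in 83 cells with twit (42.3%, 35.3% to 49.6%) and in 13.6% of cells without (11.2% to 16.2%). The difference was 28.8 percentage points (21.3 to 36.4), above that of 99.3% of all genes. In the 100 twit cells that held any Dad read the counts ran from 1 to 850 with a median of 30.5, and in the Dad-positive cells without twit the counts began at 1 as well, with a median of 14. The counts of single cells overlapped, while the share of positive cells and their median were higher with twit. Mean CPM was 80.95 against 14.6, a ratio of 5.56, and at a minimum of 10 reads the shares were 36.7% and 10.6%.

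Plate by plate, Dad was more often detected with twit on 16 of 16 plates. The differences ran from 2.22 points on plate 5 to 56.5 points on plate 2, with a median of 25.9, and each plate held only 6 to 19 cells with twit. The pooled difference was 31.1 points (23.2 to 38.9) on reads without rRNA, mitochondrial and Hox genes and 29.6 points within strata of genes detected. It was 27.8 points without the 63 cells that held markers of other cell types, Mef2 and nrv2 not counted. In cells that also held fewer than 10 reads of Mef2 and of nrv2 it was 21.3 points. These were 72 cells with twit, and cells without twit that made up 21.7% of the whole set of cells. Dad was also more frequent at higher levels of twit. It was found in 7 of the 30 cells with 1 to 9 twit reads (23.3%, 9.93% to 42.3%) and in 33.3% (22.2% to 46%) of the 66 twit cells with the lowest CPM of twit, which lie on either side of the limit of 10 reads. The share was 40% (28% to 52.9%) in the next 65 cells and 53.8% (41% to 66.3%) in the 65 highest, and the intervals of neighbouring levels overlapped.

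**Figure D2:**
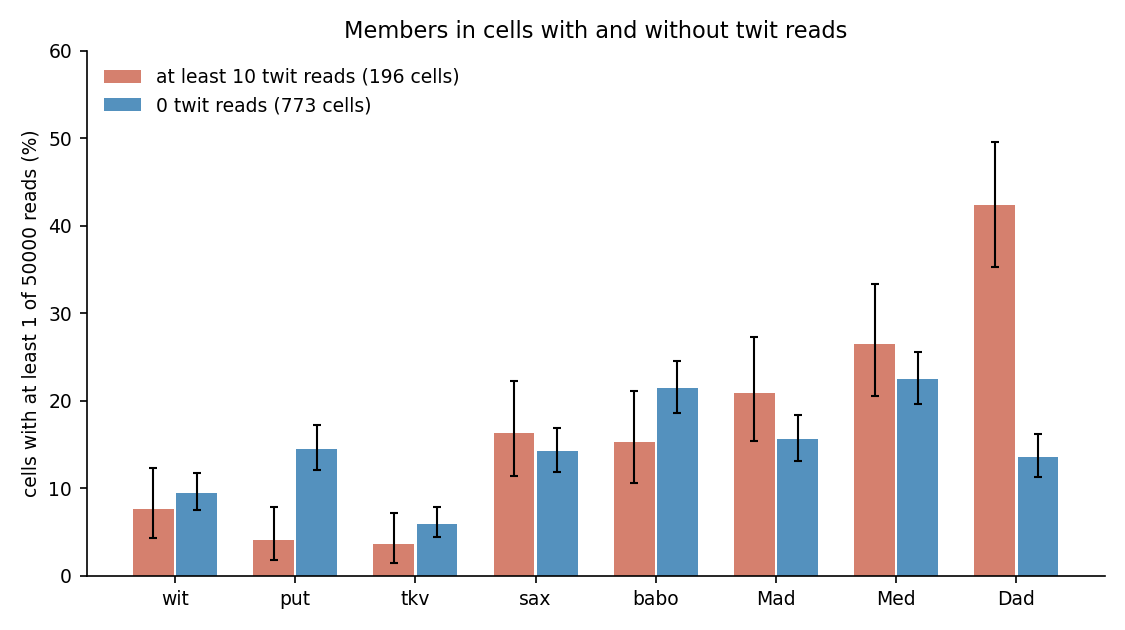
Share of cells with at least 1 of 50000 reads of each gene (bars, %) in cells with at least 10 twit reads and cells with 0; whiskers are exact 95% intervals of counting error. Dad stood at 42.3% against 13.6% and put at 4.08% against 14.5%, and the intervals of the other 6 genes overlapped.

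**Figure D3:**
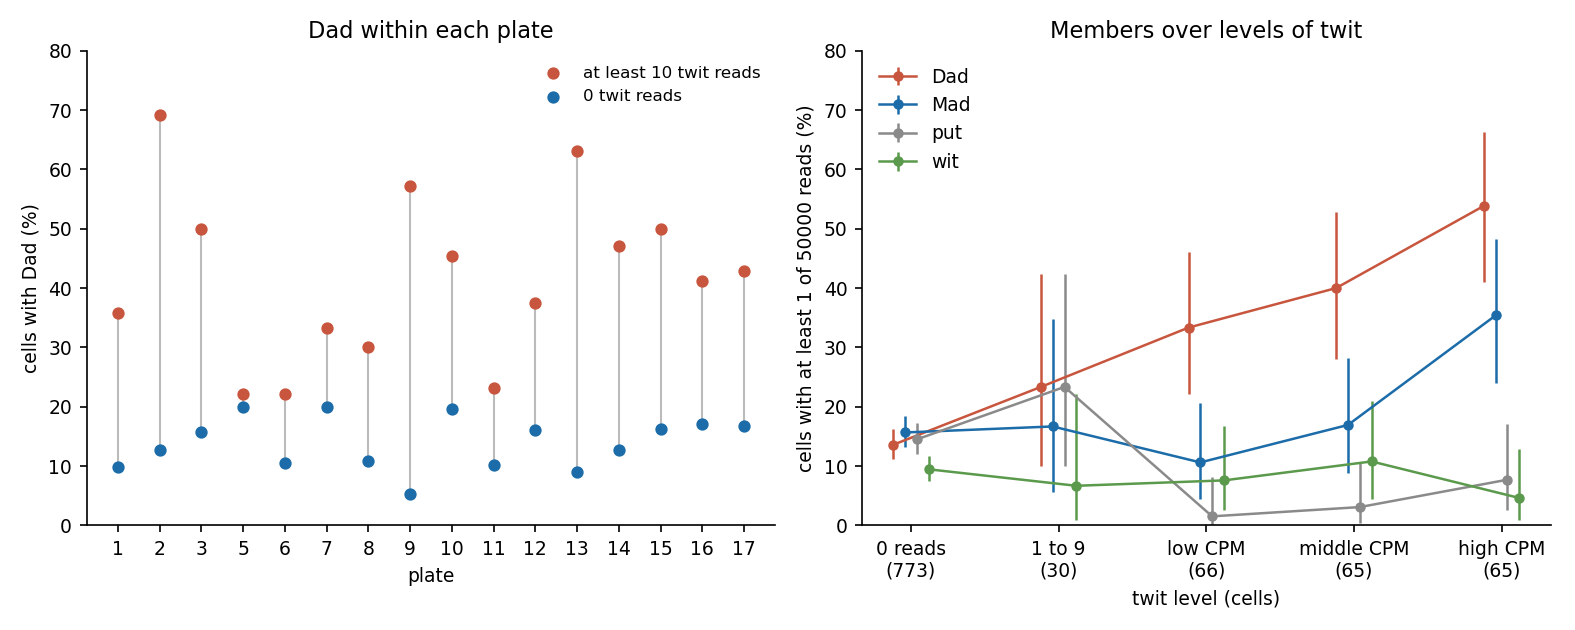
Left, share of cells with Dad (%) on each of 16 plates in cells with at least 10 twit reads and cells with 0; the first lay above the second on all 16 plates. Right, share of cells with each gene (%, exact 95% intervals) over 5 levels of twit, the last 3 being the cells with at least 10 reads divided by twit CPM; Dad stood at 13.6% in the first level and 53.8% in the last.

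The type II receptor genes did not follow Dad. The share of cells with put was 4.08% with twit (8 cells, 1.78% to 7.88%) and 14.5% without (12.1% to 17.2%), a difference of -10.4 points (-13.9 to -5.91). It was lower with twit on 15 of 16 plates, with a median of -11.7 points, and the difference was -9.50 points on reads without rRNA, mitochondrial and Hox genes. Mean CPM of put was 3.95 against 15.8. In the 30 cells with 1 to 9 twit reads, put was found in 7 (23.3%, 9.93% to 42.3%). Over the 3 levels of twit above the limit of 10 reads it was in 1, 2 and 5 cells (1.52%, 3.08% and 7.69%), with intervals that overlapped. For wit the shares were 7.65% and 9.44%, a difference of -1.79 points (-5.81 to 3.26), with 7 plates higher and 9 lower. On reads without rRNA, mitochondrial and Hox genes the difference for wit was 0.833 points, and the ratio of its mean CPM, 0.83, was 0.49 without the 1 twit cell with the highest level, so no direction is given for it. Either type II receptor was present in 11.2% of cells with twit and 21.9% of cells without, a difference of -10.6 points (-15.7 to -4.63).

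The type I receptor genes differed less. The BMP receptor gene sax was detected in 16.3% and 14.2% of cells, a difference of 2.10 points (-3.47 to 8.49). The shares for tkv were 3.57% and 5.95% (-2.38 points, -5.23 to 1.59), although its mean CPM, carried by few cells, was 2.67 against 7.30. The activin receptor gene babo was seen in 15.3% and 21.5% (-6.17 points, -11.8 to 0.308). This became -3.70 points on reads without rRNA, mitochondrial and Hox genes and -1.64 points with all reads. All 3 intervals of counting error included 0, which is no test of a difference.

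Among the Smad genes, Mad was detected in 20.9% of cells with twit and 15.7% without, a difference of 5.27 points (-0.859 to 12.1), with 10 plates higher and 6 lower. On reads without rRNA, mitochondrial and Hox genes it was 9.60 points (2.75 to 17.1), and with all reads the shares were 35.2% and 19.8%. With plate 2, 10, 11, 13 or 17 left out the difference was below 5 points, the lowest being 4.06. It was 4.90 points without the 63 cells with markers of other cell types, and 2.83 points with Mef2 and nrv2 counted among these markers. Among only the cells with a Hox read it was below 5 points as well. Mad was present in 35.4% (23.9% to 48.2%) of the 65 cells highest in twit, against 10.6% (4.37% to 20.6%) of the 66 lowest. Med was found in 26.5% and 22.5%, a difference of 4.02 points (-2.77 to 11.4) that ranged from -21.4 to 47.7 points between plates. The ratio of its mean CPM was 0.85 and turned to 1.08 with totals free of rRNA, mitochondrial and Hox genes, and that of wit turned from 0.83 to 1.05.

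The 8 genes went both ways. By share, 2 of 8 were at least 5 points higher with twit (Dad and Mad), where 9.3% of all genes were, and 2 at least 5 points lower (put and babo), where 16.4% were. By the ratio of mean CPM, 1 was at least 1.5-fold higher (Dad), where 10.6% of all genes were, and 2 at least 1.5-fold lower (put and tkv), where 45.5% were. Without the 1 twit cell with the highest level of each gene, wit and babo (0.62) were also at least 1.5-fold lower. On reads without rRNA, mitochondrial and Hox genes, Dad and Mad lay at least 5 points higher, where 12.5% of genes did, and put at least 5 points lower, where 13.7% did. The median difference over the 8 genes was 0.15 points.

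Marker genes of other cells differed between the groups as well. The summed level of 6 glia markers was 133.7 CPM with twit and 268.4 CPM without, of which nrv2, a sodium pump subunit gene present in 64.4% of cells, gave 129.2 and 264.3 CPM. The glia genes alrm and wrapper were at 0 in the twit cells, but had reads in only 5 and 4 cells without twit. In the twit cells, 1 cell gave 82.4% of the reads of the glia gene Gs2. Gs2 went the other way, at 3.35 CPM with twit and 0.829 CPM without. So did moody by share, with reads in 2.55% and 1.29% of cells. The 5 haemocyte markers summed to 1.49 and 19.3 CPM, with NimC1 and He at 0 in the twit cells, and the 4 neuroblast markers to 1.27 and 6.37 CPM, with dpn, wor and ase at 0. In cells without twit, NimC1, He, dpn, wor and ase had reads in only 1 to 3 cells each. Each gene at 0 could have a share of up to 1.53% of the twit cells by 3 counts (exact limit 1.86%). The 8 muscle markers summed to 66.2 and 84.8 CPM, of which Mef2 gave 58.3 and 81.3 CPM. By mean CPM, Act57B (3.81 and 1.44), Mlc2 (3.37 and 0.399) and sls (0.489 and 0.219) were higher with twit. These values rest on 6, 3 and 3 twit cells with a read. Mhc, up, wupA and Tm2 were lower, with reads in 1, 3, 0 and 0 twit cells. Without the 63 cells Dad, put and babo stayed past 5 points and Mad did not. With the cells of Mef2 and nrv2 left out as well, Dad, put and babo again lay past 5 points, Med lay 6.56 points higher, and Mad did not pass.

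The groups also differed in the genes that mark neurons and MN types. VGlut had reads in 96.4% of cells with twit and 95.5% without, but its mean CPM was 491.4 and 1770. Its median in cells with a read was 266.3 and 1522 CPM. Of the other neuron markers, brp was higher with twit (884.3 and 491.2 CPM). Mean CPM of elav, nSyb and Syt1 was lower with twit, by less than 1.5-fold. The summed level of the dorsal MN genes Dr and grn was 69.7 CPM with twit and 202.5 CPM without, and Dr had reads in 2.04% and 19.3% of cells. The summed level of the ventral MN genes Lim3, tup and exex was 147.5 and 72.6 CPM, and Lim3 had reads in 42.9% and 26% of cells. Within these types the values for Dad are given further on.

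Other genes of the pathway were taken from lists of ligands, modulators, regulators, nuclear partners, targets and transport genes, of which 31 of 39 were in the gene table. By share, 11 of the 31 were at least 5 points higher with twit (9.3% of all genes) and 7 at least 5 points lower (16.4% of all genes). By mean CPM 5 were at least 1.5-fold higher (10.6% of all genes) and 11 at least 1.5-fold lower (45.5% of all genes). The shares of all genes, here and above, were not matched for how often a gene was detected. A rarely detected gene can hardly differ by 5 points. The extracellular modulators went furthest in both directions. The gene cv-2 (crossveinless 2), which encodes a secreted BMP-binding protein, was detected in 45.4% of cells with twit and 8.93% without, a difference of 36.5 points (29 to 44) and a ratio of mean CPM of 5.95. Its share was 24.2%, 46.2% and 66.2% over the 3 levels of twit. The glypican gene dally, whose product binds BMP ligands at the cell surface, was in 56.6% and 35.4% of cells (21.2 points, 13.1 to 29).

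In the opposite direction, tok, which encodes a secreted metalloprotease of the Tolloid family, was detected in 2.55% of cells with twit and 25% without (-22.4 points, -26.1 to -17.9), and was lower on 16 of 16 plates. The gene cmpy (crimpy), whose product binds Gbb in motoneurons, was in 23% and 42.2% (-19.2 points, -25.9 to -11.8). The related protease gene tld had no read in the cells with twit, which allows a share of up to 1.53% by 3 counts (exact limit 1.86%), and was in 1.42% of the others. Of the other ligands, the activin gene Actbeta was in 52.6% and 31% (21.5 points, 13.5 to 29.4), higher on 16 of 16 plates. For the activin-like ligand gene myo mean CPM was 0.0450 and 1.98, from 2 and 14 cells with a read.

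Genes that act with the Smads in the nucleus divided as well. The Ski-family co-repressor gene Snoo was detected in 75.5% of cells with twit and 53.2% without (22.3 points, 14.8 to 29.2). Smox, the Smad of the activin branch, was in 20.9% and 33.6% (-12.7 points, -19.2 to -5.53). The gene shn (schnurri), whose product binds Mad and Med, was in 29.1% and 37.9% (-8.82 points, -16.0 to -1.12). The gene brk, a repressor that BMP signalling is known to switch off, was in 3.06% and 7.37% (-4.31 points, -7.15 to -0.419). For nej, a co-activator gene and the most often detected of this list, the shares were 67.9% and 63.3%, a difference whose interval (-3.21 to 12) included 0.

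Regulators of the receptors and other targets differed by less. The F-BAR gene Cip4 was in 41.8% and 30.5% (11.3 points, 3.54 to 19.2), and nwk, which encodes another F-BAR protein of endocytosis, in 61.2% and 52.7% (8.57 points, 0.533 to 16.3). Mean CPM of nwk was lower with twit (83.4 and 117.9), and at a minimum of 10 reads its shares were 41.3% and 41.5%. For the ubiquitin ligase gene Smurf the shares were 8.67% and 14% (-5.30 points), with an interval from -9.72 to 0.0993. By mean CPM, LIMK1, which encodes a kinase that binds Wit, was 1.55-fold higher with twit, but 1.34-fold without the 1 twit cell with its highest level, and its median in cells with a read was lower with twit (26.4 against 57.4 CPM). The ubiquitin ligase gene hiw was 1.88-fold lower by mean CPM. The target genes trio and Fmr1 differed by 6.57 and 6.56 points, with intervals that included 0. The target gene FMRFa had no read in any cell, which allows a share of up to 0.300% by 3 counts (exact limit 0.369%).

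Dynein is the motor that carries cargo along axons to the cell body. Its heavy chain gene Dhc64C was detected in 26% of cells with twit and 16.9% without (9.07 points, 2.45 to 16.3). The dynactin gene DCTN2-p50 was in 24% and 13.6% (10.4 points, 4.04 to 17.4), higher on 15 of 16 plates. Its ratio of mean CPM, 1.58, was 1.40 without the 1 twit cell with its highest level. For the genes of other dynein subunits the differences were 5.18 points (Dlic), -6.73 points (sw) and -6.80 points (robl), each with an interval that included 0. The gene sw has near-identical copies in this species, so that its reads are uncertain. For DCTN1-p150 the shares differed by -0.0871 points, and mean CPM was 2.45-fold lower with twit.

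**Figure D4:**
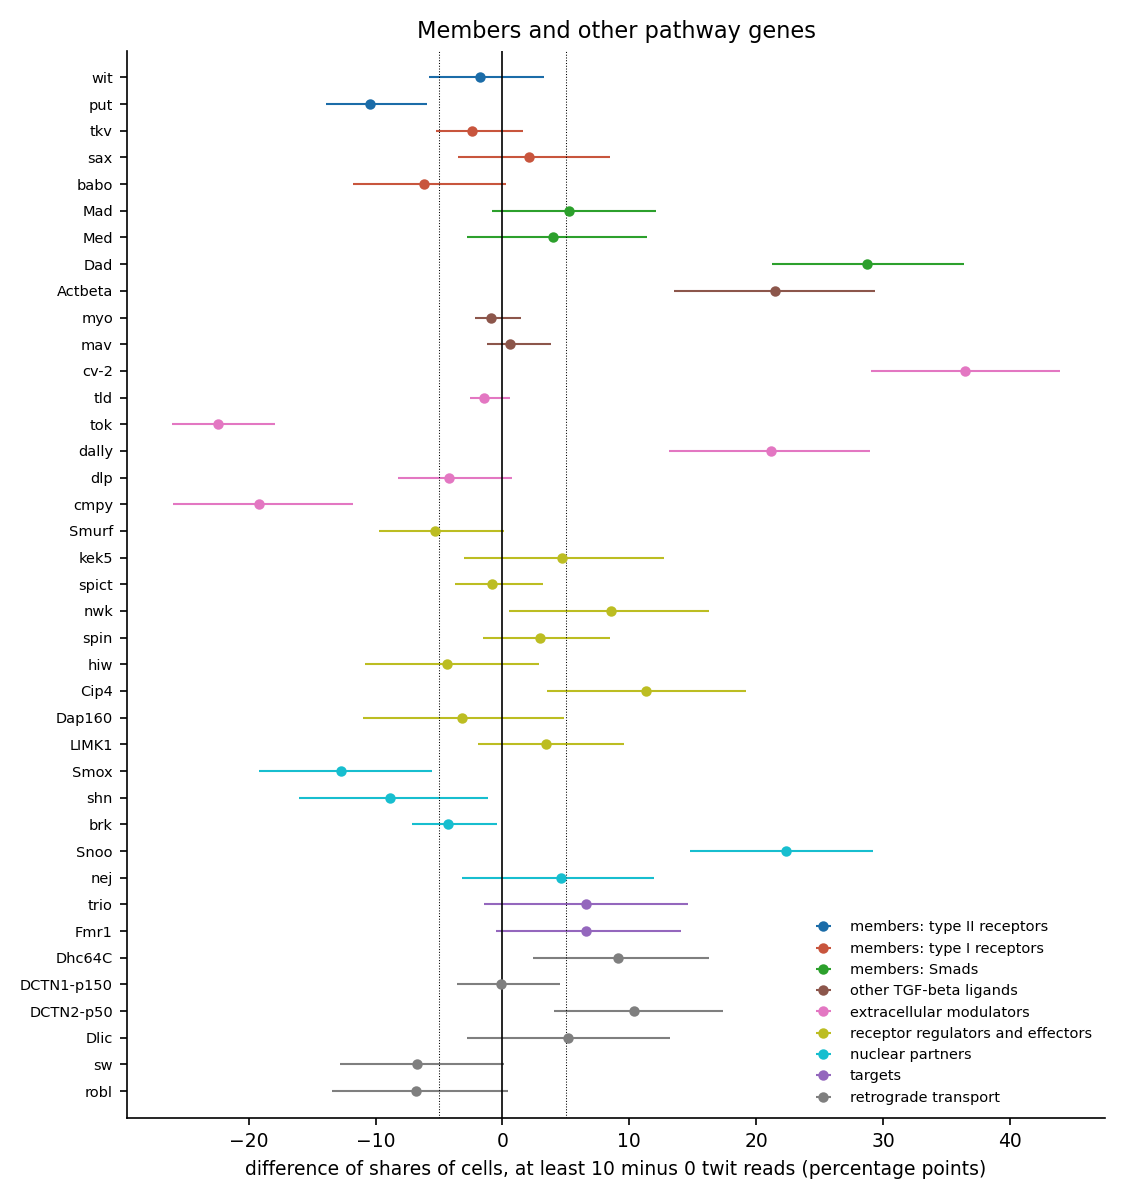
Difference of the share of cells with at least 1 of 50000 reads (percentage points, cells with at least 10 twit reads minus cells with 0) for the 8 genes and 31 other pathway genes, colored by list; bars combine the exact 95% limits of both shares and dotted lines mark 5 points either way. Among the values farthest from 0 are cv-2 (36.5), Dad (28.8), Snoo (22.3) and tok (-22.4).

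Within each twit group, cells with a Dad read were set against cells without, for 38 genes. The cells are not replicates and the intervals cover counting error only. Counts of intervals that exclude 0 therefore describe these cells and are no test. Among the cells with twit, 4 of the 38 intervals excluded 0, as did 3.22% of those over all genes. Mad was found in 29% of the 100 cells with Dad and 12.5% of the 96 without (16.5 points, 4.50 to 28). Dhc64C was in 35% and 16.7% (18.3 points, 5.42 to 30.6), DCTN2-p50 in 32% and 15.6% (16.4 points, 3.78 to 28.4), and cmpy in 16% and 30.2% (-14.2 points, -26.4 to -1.74). Among the cells without twit 6 of the 38 did, where 20.1% over all genes did, and the differences reached 10.9 points (sw, 34.1% and 23.1%), which fell to 2.29 points within strata of genes detected. There wit was found in 14.5% of cells with Dad and 8.35% of cells without, a difference of 6.15 points (0.216 to 13.4) and of 4.76 within strata. This was not particular to wit: nej (10.3 points, 6.62 within strata), cv-2 (6.78 and 5.43) and Cip4 (9.59 and 4.84) kept more. For DCTN2-p50 the values were 8.16 and 2.82.

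Co-detection was measured as the log2 odds ratio that reads of 2 genes fall in the same cells, for the 28 pairs of the 8 genes. The median over pairs was 0.35, with 21 pairs above 0 and 7 below. Cells in which more genes were detected held more of these genes too: the mean number of the 8 genes per cell was 0.875 in the lowest of 5 strata of other genes detected and 2.40 in the highest. Within these strata the median log2 odds ratio was 0.08, with 16 pairs above 0 and 12 below. The crude, thinned and stratified values were all above 0 for 15 pairs, all below 0 for 5, and differed in sign for 8. They describe cells that share a pool and differ in depth.

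The highest crude value joined the receptor gene wit to the inhibitor gene Dad. Both were present in 53 cells, that is 38.1% of the cells with wit and 21.3% of the cells with Dad. The log2 odds ratio was 1.06 crude, 0.91 in strata, 0.67 thinned and 0.41 at a minimum of 10 reads. It was 1.02 in cells without twit and 1.24 in cells with it. Mad and Dad were together in 79 cells, with a log2 odds ratio of 0.86 crude, 0.66 in strata and 1.25 at a minimum of 10 reads, and with 0.37 in cells without twit and 0.88 in cells with it. The type I receptor genes tkv and babo were together in 15 cells, with -0.38 crude and -0.66 in strata. Mad and Med, whose products act as a complex, were together in 67 cells (6.71%), with -0.20 crude, -0.56 in strata and 0.24 at a minimum of 10 reads.

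**Figure D5:**
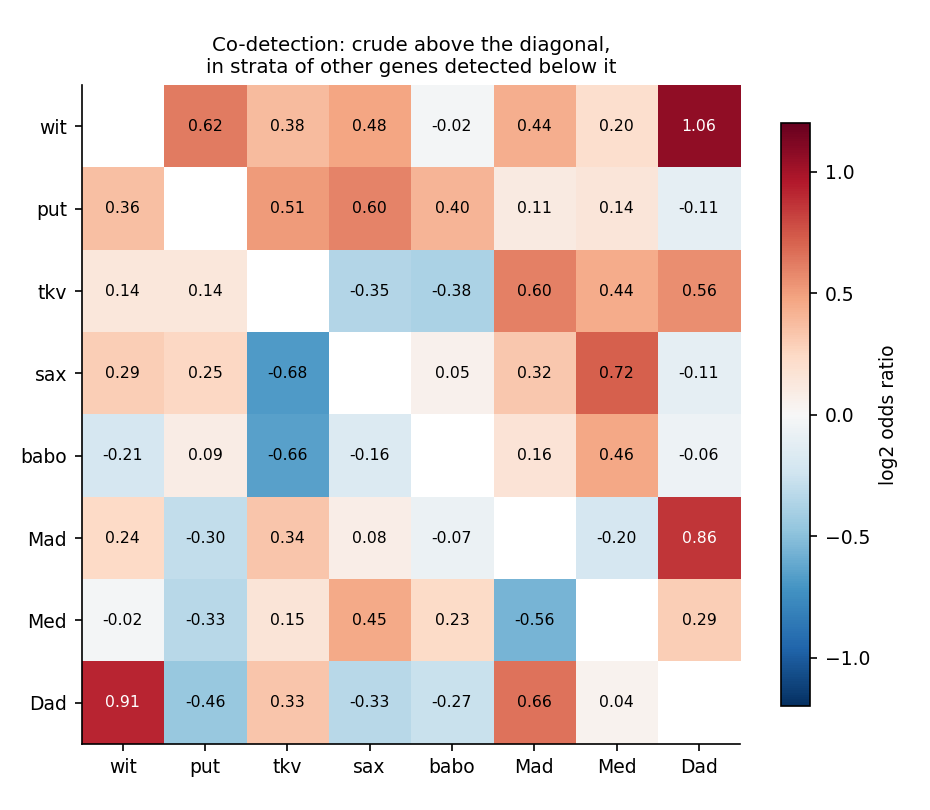
Log2 odds ratio of detection in the same cell for the 28 pairs of 8 genes over all cells, crude above the diagonal and within 5 strata of the number of other genes detected below it (color and printed value). The pair wit and Dad has 1.06 and 0.91, and the pair Mad and Dad 0.86 and 0.66.

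Few cells held reads of a whole signalling chain. None of the 8 genes was detected in 19.8% of cells, 1 in 31.7%, 2 in 25.8%, 3 in 15.5%, 4 in 51 cells, 5 in 17 cells and 6 in 3 cells. A BMP type I receptor together with a type II receptor was seen in 80 cells (8.01%, 6.40% to 9.87%). With Mad and Med as well, the set was complete in 8 cells (0.801%, 0.346% to 1.57%), of which 2 had at least 10 twit reads and 5 had none. At a minimum of 10 reads it was complete in 3 cells (0.300%, 0.0620% to 0.875%). Detection per cell was incomplete at this depth, so these counts do not give the share of cells that express the chain.

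Cells were also placed along the body by their most posterior Hox gene. The share of cells with Dad ran from 11.4% (5.34% to 20.5%) of 79 cells with lab alone to 26% (16.6% to 37.2%) of 77 cells with Antp, and these intervals overlapped. It was 23.3% of cells with abd-A and 17.5% of cells with Abd-B. The share of cells with twit in these classes ran from 6.33% (lab) to 31.1% (Ubx). Within classes the Dad difference between cells with and without twit was 31.2 points (18 to 44.8) for Abd-B, 41.7 points (26.1 to 56.3) for abd-A and 33.1 points (12.1 to 53.6) for Ubx. It was 12.4 points (-11.5 to 38.7) for Antp, where 20 cells held twit, 20.6 points (-6.52 to 51.6) for Dfd or Scr, with 13 such cells, and 8.89 points (-12.8 to 60.9) for lab, with 5. In cells without a Hox read, 12 of them with twit, it was 16.4 points (-7.67 to 48.5).

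Cells with reads of the ventral genes Lim3, tup or exex and not of Dr or grn held Dad in 24.2%, and cells with Dr or grn and no ventral gene in 13.6% (10.6 points, 3.99 to 17.1). Reads of twit were in 32.6% and 13.9% of these cells. Within the dorsal and the ventral class the Dad difference between cells with and without twit was 31.2 points (14.8 to 48.9) and 29.3 points (17.7 to 40.8). For the other 7 genes the interval of the ventral minus dorsal difference included 0. The 79 cells with at least 10 reads of Vmat, the monoamine transporter gene of modulatory neurons, were also compared with the rest. They differed by -3.33 to 2.47 points over the 8 genes, and all 8 intervals included 0. These intervals cover counting error only, so that they include 0 is no test.

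Last, the genes whose thinned counts ranked most like each gene over all cells were listed among the 5308 genes with reads in at least 50 cells. For Dad these were twit, with a Spearman rho of 0.31, CG14400 (0.28) and AnxB9 (0.28), where the median rho over genes was 0.01. CG14400 lies on the strand opposite twit. Its reads were found in 78.6% of the cells with twit and in 0 cells without, and of the exonic bases of twit 11% belong to it as well, so that reads of this pair cannot be told apart where strand was not kept. For the other 7 genes the highest rho lay between 0.14 and 0.22, and in counts this sparse such values are no finding. They joined wit to CG6428, CG31365 and robo3, put to VhaM8.9, CycG and 14-3-3epsilon, tkv to CG3065, CG13384 and CG30466, and sax to PrBP, Adf1 and CG14270. They joined babo to AIMP3, CSN4 and VhaAC39-1, Mad to Atg8a, GC1 and CG11050, and Med to RpS15, RpL40 and alphaTub84B.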

How the data were processed

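Single-cell libraries were analysed from 999 MNs of 1 pool, of which 196 had at least 10 twit reads, 773 had 0 and 30 had 1 to 9. Per the submitters' processing notes and the study's methods, reads were trimmed of poly-A and mapped to BDGP6 transcripts with kallisto 0.43.0 (R 3.5.1 is also named), and cells with at least 500 genes of 10 reads or more and genes with at least 10 reads in 5 cells were kept. The gene table deposited by the authors holds counts. It has no row for gbb, although 7 cells held 10 or more estimated reads of this gene. The filter as described would have kept gbb, and the reason for its absence was not tested. The transcript tables deposited by the authors hold estimated counts and TPM, which is scaled to length and to the library. Whether strand was kept is not given in the sources used here. Summed and rounded estimated counts equalled the counts of the 8 genes in every cell (0 cells differed by more than 1 read).

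CPM was computed over all genes of the table, with Python 3.11.15, numpy 2.4.6, scipy 1.17.1 and pandas 2.3.3. Detection meant at least 1 read. For comparisons each cell was thinned without replacement to 50000 reads. The interval of a difference combined the exact limits of both shares. Odds ratios had 0.5 added to each cell of the table. Genes past 5 percentage points or past 1.5-fold were counted over all 7279 genes. The cells are 1 sample, so no test or p-value is given, and plates serve as technical batches. Named were the members, every listed pathway gene past these limits, the most often detected gene of each list, and for each member the 3 genes ranked most like it. The members and lists were chosen with earlier results of these data known. The measures were tested on simulated data. Genes were located with annotation release 115 (BDGP6.54), in which 371 of 30651 transcripts had no gene. Med was matched by symbol, as its identifier differs. Alternatives were depth, read minimum, twit limit, cells left out, strata, totals and each plate left out.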

Additional observations from a re-analysis of the deposited data

Results flagged for a closer look

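Some pathway genes outside the rows of the gene table had estimated reads in the transcript tables of the cells, more than 3 reads in all for each of 7 genes. The number of cells with a read was 10 for gbb, 4 for the BMP ligand gene dpp, 6 for the BMP ligand gene scw and 1 for the activin-like ligand gene daw. It was 15 for the BMP antagonist gene sog, 27 for cv (crossveinless) and 10 for the follistatin gene Fs. The 26 reads of sog and the 52 reads of cv were spread at a median of 1 read per cell.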

How the results depend on the processing

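Of the summary values recomputed under alternatives 11 moved, as did 10 of those for single genes. A value moved if it shifted by at least its standard deviation over plates. By this rule the fall of wit from 13.9% to 7.61% of cells at a minimum of 10 reads did not count. Counts moved past 1.5-fold, and the share with a complete set if it left its interval. Reversal was recorded only for differences past 5 points, and 0 of these reversed. The smaller differences of wit, sax and Med kept their sign under 11, 12 and 12 of 13 settings. The median share of cells over the 8 genes, 20.3%, was 12.8% at a minimum of 10 reads and 15.6% after thinning to 50000 reads. The median of the levels, 30.4 TPM in cells with a read, was 13.6 TPM as a mean over all cells. The share of cells with a complete set, 0.801%, was 0.300% at a minimum of 10 reads. The 10.6% of genes higher and 45.5% of genes lower by 1.5-fold in mean CPM became 5.76% and 28.9% at 2-fold, 7.99% and 41.9% among the 5308 genes with reads in at least 50 cells, and 5.67% and 10.7% with the mean of log2(CPM + 1), where the median ratio over all genes was 0.95. With that mean, 1 of the 8 genes (put) in place of 2 was lower, as the ratio for tkv was 0.90. Without the 1 twit cell with the highest level of each gene, 4 were lower (wit, put, tkv and babo). With totals free of rRNA, mitochondrial and Hox genes, 14.7% of genes were higher and 37.8% lower.

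The Dad difference, 28.8 points, lay between 21.3 and 33.2 under 13 other settings, the lowest without the cells that held Mef2, nrv2 or other markers, and between 26.2 and 30.6 when single plates were dropped. The put difference lay between -13.2 and -6.66, and between -12.0 and -9.81 when single plates were dropped. Mad lay past 5 points under 9 of 13 settings and for 11 of 16 dropped plates, and babo under 10 settings and for all 16. The second random draw, the strata of genes detected, the cells with markers of other types left out, the highest cell left out and the thinning without rRNA, mitochondrial and Hox genes were chosen after seeing the data. The mean of the differences within plates was 28.9 points for Dad and -10.2 points for put. After thinning, tkv and wit had reads in 55 and 90 cells.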
